A study of Rattus norvegicus with 9 samples.

Results

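The results below describe 9 genes of the B lymphocyte lineage in RNA sequencing of rat knee cartilage. These were Ebf1, Pax5, Rag1, Vpreb1, Cd79a, Cd79b, Blnk, Cd72, and Ms4a1, and they were found by gene name among the 32043 genes of the table, each on 1 entry. All 9 passed the filter on low values (a mean of at least 0.5 FPKM over the 9 libraries). FPKM are fragments scaled by gene length and library size. The 9 genes were chosen by their FPKM in the model against the control libraries, where they were already known to be lower, so that difference is given for them as a description and not as a test.

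All rats were male Sprague–Dawley rats, purchased at 8 weeks of age, and the left knee was operated on. Control rats only had the joint capsule opened and sutured. Model rats had KOA (knee osteoarthritis) by the modified Hulth method, in which the medial collateral and anterior cruciate ligaments were excised and the medial meniscus was taken out, with forced activity in the 4 weeks after. SYD-H rats of the study had that same surgery and then the highest of the doses of SYD (Shengyu decoction, a herbal preparation) by gavage for 4 weeks. Tissue was collected 8 weeks after surgery, and each group had 3 libraries. The labels mark the treated libraries as syd with no dose, but their library names carry CXTB, which is not explained, and SYD-H was taken from the study, whose methods list only control and model tissue for sequencing. The study also had a group given CXB, its positive control drug, after the same surgery. Whether the CXTB names refer to that group is not stated, so it is not settled that these are SYD-H libraries. The labels also do not say whether the 3 libraries of a group came from separate rats, and they describe extraction from retina although the tissue is given as cartilage. P-values therefore measure the spread between these libraries. The 8 listed photoreceptor genes summed to at most 3.50 FPKM in any library, and Crx and Nrl, which define photoreceptors, were at 0 in all 9.

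B cells arise in the bone marrow, a tissue that the labels do not name. Ebf1 and Pax5 switch on the B lineage program, Rag1 cuts the immunoglobulin genes so that they can be rearranged, and Vpreb1 is part of the surrogate light chain that stands in until a true light chain is made. Cd79a and Cd79b carry the signal of the finished B cell receptor, Blnk links that receptor to the enzymes downstream, Cd72 dampens it, and Ms4a1 (CD20) appears on the surface as the cells mature. Rag1, Vpreb1, Ebf1, and Pax5 are called precursor genes here, and Cd72, Cd79a, Cd79b, and Ms4a1 mature genes, although Ebf1 and Pax5 stay active in mature B cells and Cd79a and Cd79b are already made by precursors. Blnk was put in neither set.

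The bases just before the start of transcription are shown for 1 mature gene, for Blnk, and for 1 precursor gene, because factors of the B lineage read such stretches. RefSeq promoters (GRCr8) were at hand for 4 of the 9 genes, Cd79a, Blnk, Rag1, and Ebf1. Each stretch is the 250 bases upstream of the start, 5′ to 3′ on the gene's own strand, at chr1:89621210-89621459 (plus strand) for Cd79a, chr1:249770534-249770783 (minus strand) for Blnk, and chr3:108383185-108383434 (minus strand) for Rag1. Capitals mark matches to the motifs searched.
Cd79a: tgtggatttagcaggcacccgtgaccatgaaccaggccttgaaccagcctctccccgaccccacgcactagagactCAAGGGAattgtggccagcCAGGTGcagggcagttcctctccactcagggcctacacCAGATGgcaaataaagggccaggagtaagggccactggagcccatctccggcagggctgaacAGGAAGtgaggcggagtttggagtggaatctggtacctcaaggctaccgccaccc
Blnk: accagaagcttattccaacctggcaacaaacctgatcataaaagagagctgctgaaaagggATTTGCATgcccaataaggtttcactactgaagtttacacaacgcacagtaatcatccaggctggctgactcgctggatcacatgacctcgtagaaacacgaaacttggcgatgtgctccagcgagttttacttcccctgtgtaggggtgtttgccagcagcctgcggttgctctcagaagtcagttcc
Rag1: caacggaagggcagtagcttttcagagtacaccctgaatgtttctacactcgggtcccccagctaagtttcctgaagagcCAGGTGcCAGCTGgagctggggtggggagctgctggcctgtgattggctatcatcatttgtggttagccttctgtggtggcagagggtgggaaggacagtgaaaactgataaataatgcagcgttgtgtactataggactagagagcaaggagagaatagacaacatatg

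Both strands were searched for the octamer ATGCAAAT, the E-box CAGNTG, the EBF motif CAAGGGA, and the ETS core AGGAAG. Among the upstream stretches of the same length of all 33469 promoters, 1.56% held the octamer, 43.3% the E-box, 3.91% the EBF motif, and 29.5% the ETS core. The Blnk promoter held the octamer on the minus strand, 182 to 189 bases upstream. In Cd79a, the EBF motif lay 168 to 174 bases upstream, the ETS core 50 to 55 bases upstream, and E-boxes began 155 and 117 bases upstream. Rag1 held E-boxes starting 170 and 163 bases upstream. The only match in the Ebf1 promoter was an ETS core on the minus strand, 162 to 167 bases upstream. These letter matches are descriptions of the windows, not binding sites.

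The libraries differed in ways that touch every value below. They held 14914121 to 19510537 reads, recovered from the FPKM as whole multiples, but the share of mitochondrial reads was 4.33% ± 0.458 (SD, n = 3) in the control group, 70.5% ± 27.3 in the model group, and 43.7% ± 25.7 in the SYD-H group. Reads outside the mitochondrial genes numbered 14306782 to 17373645 in control. They came to 1744769, 11106680, and 3611325 in model replicates 1, 2, and 3, and to 12322343, 12745818, and 5153851 in SYD-H replicates 1, 2, and 3. Model replicate 1 was thus the shallowest, and 1 read of a gene there is worth several times more FPKM than in a control library. The part of this difference in the results was not tested. In bulk tissue, fewer B lineage cells and less RNA per cell cannot be told apart.

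In the control libraries, the 9 genes ran from Cd79a at 175 ± 20.8 FPKM (SD, n = 3 libraries) down to Vpreb1 at 7.45 ± 9.40. Cd79b followed Cd79a at 51.8 ± 10.6, then Cd72 at 36.9 ± 10.8 and Blnk at 34.2 ± 3.21, then Pax5 at 17.0 ± 2.48, Rag1 at 12.4 ± 1.92, Ms4a1 at 11.2 ± 2.72, and Ebf1 at 11.04 ± 1.42. Cd79a stood apart from Cd79b, and Blnk from Pax5, with no overlap between libraries. The other neighbours in this order overlapped. Together the 9 genes summed to 305 to 393 FPKM, from 14480 to 23168 reads.

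In the model libraries, the same sum was 61.8, 27.5, and 53.7 FPKM, and in the SYD-H libraries 22.1, 46.5, and 56.9. These sums rest on 412, 1794, and 583 reads in the model group and on 1319, 2455, and 1176 in the SYD-H group. The order of the means also differed: after Cd79a at 18.8 ± 15.6 in the model group came Blnk at 7.85 ± 2.11 and Pax5 at 6.92 ± 5.53, while Cd79b at 3.23 ± 4.51 and Cd72 at 0.450 ± 0.780 stood near the end. The model libraries of every gene but Blnk spread widely, and most neighbours in that order overlapped. In the SYD-H group, Blnk at 9.85 ± 2.83 and Ebf1 at 6.60 ± 0.742 followed Cd79a at 10.97 ± 10.04, and Rag1 at 0.630 ± 0.518 and Ms4a1 at 0.631 ± 0.403 were the lowest.

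**Figure D1:**
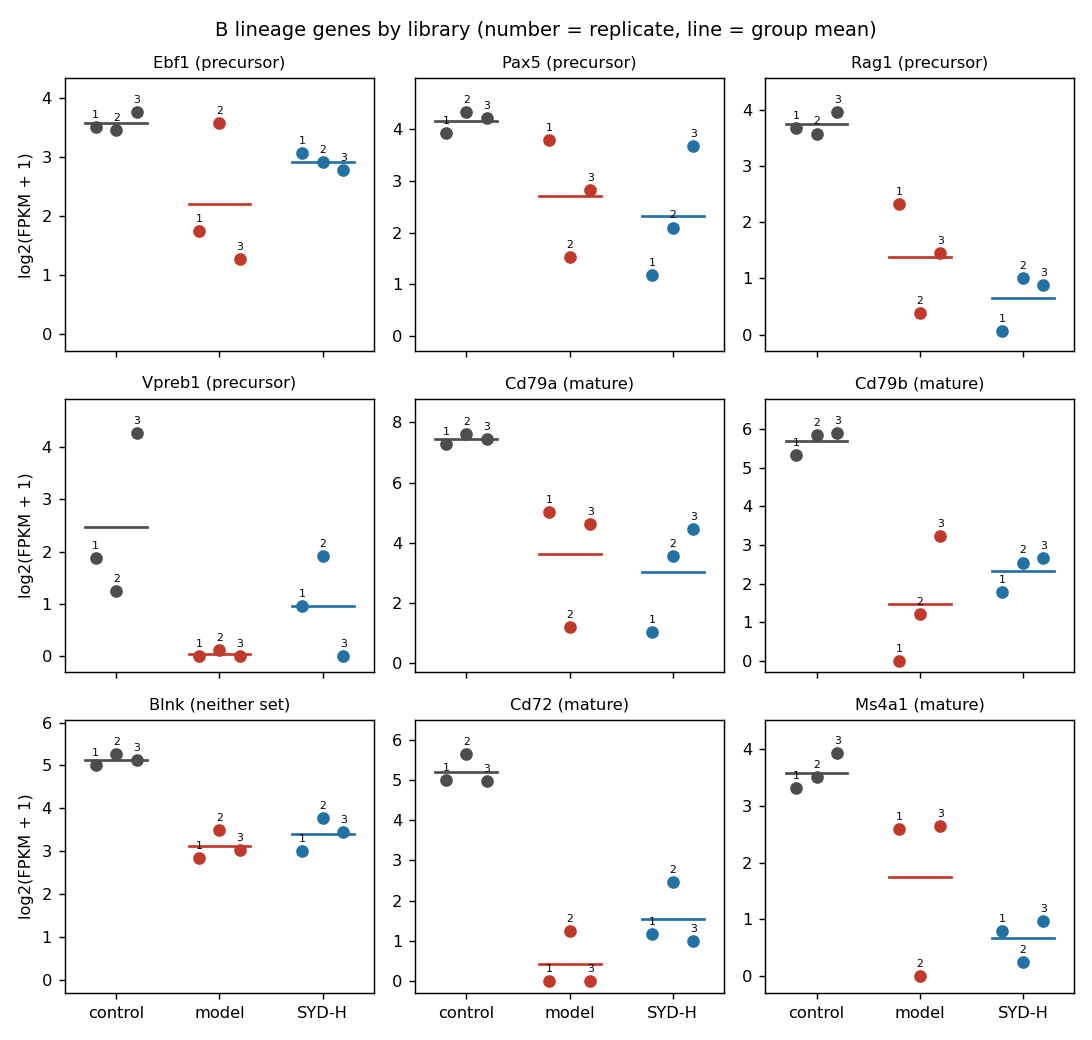
Each panel shows 1 of the 9 genes, with log2(FPKM + 1) on the y axis, 1 numbered point per library, and a line at the mean of the 3 libraries of each group. The control libraries lie above all 3 model libraries for every gene but Ebf1, whose model replicate 2 stood at 11.02 FPKM.

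Ebf1 (ENSRNOG00000028845, chromosome 10, 29099933 to 29487665, plus strand, in the authors' table, whose build is not named) starts the B lineage program and is also known from fat and stromal cells. It stood at 10.4, 10.02, and 12.7 FPKM in control, 2.36, 11.02, and 1.42 in model, and 7.37, 6.54, and 5.89 in SYD-H libraries. Model replicate 2 was level with the controls, at 99.9% of their mean from 1019 reads, while the other model libraries held 30 and 33 reads. All SYD-H libraries were below all control libraries, at 53.3% to 66.7% of the control mean. The log2 difference on log2(FPKM + 1) was -1.38 (SE 0.62) for model against control and -0.66 (SE 0.15) for SYD-H against control.

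Pax5 (ENSRNOG00000024729, chromosome 5, 58765036 to 58944326, minus strand) holds cells to the B lineage. It measured 14.3, 19.2, and 17.6 FPKM in control, 12.8, 1.87, and 6.06 in model, and 1.28, 3.29, and 11.8 in SYD-H libraries. The highest model library and the highest SYD-H library were at 75.4% and 69.1% of the control mean, close under the lowest control library, whereas model replicate 2 and SYD-H replicate 1 were far lower. The reads behind these values were 103, 109, and 89 in the model group and 75, 206, and 299 in the SYD-H group. The log2 differences from control were -1.45 (SE 0.58) in the model group and -1.84 (SE 0.62) in the SYD-H group.

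Rag1 (ENSRNOG00000004630, chromosome 3, 87917004 to 87928291, minus strand) is the cutting subunit of the V(D)J recombinase, which works in developing lymphocytes of both the B and the T lineage. It stood at 11.8, 10.9, and 14.6 FPKM in control, 4.01, 0.298, and 1.74 in model, and 0.0392, 1.01, and 0.839 in SYD-H libraries. Every model and SYD-H library was below every control library, and SYD-H replicate 1 was the lowest at 0.315% of the control mean, from 7 reads. The log2 differences from control were -2.35 (SE 0.53) for model and -3.09 (SE 0.30) for SYD-H.

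Vpreb1 (ENSRNOG00000052348, chromosome 11, 84126969 to 84127846, plus strand) differed among the control libraries themselves, at 2.70, 1.37, and 18.3 FPKM, with 570 of the 674 control reads in replicate 3. Model libraries gave 0, 0.0957, and 0 FPKM, which is 2 reads in all, and SYD-H libraries gave 0.952, 2.76, and 0. A count of 0 allows up to 3 reads, or 1.04 FPKM in model replicate 1, 0.570 in model replicate 3, and 0.329 in SYD-H replicate 3. Over pooled reads, the model group was at 0.859% of control (exact 95% interval 0.104% to 3.11%) and the SYD-H group at 19.4% (15.3% to 24.5%), intervals that cover counting error only. These shares rest on control replicate 3: without it, an alternative added after the values were seen, they were 3.50% (0.418% to 13.0%) and 79.3% (58.6% to 107%). The SYD-H libraries overlapped control replicates 1 and 2. The fitted log2 differences, -2.42 (SE 0.79) and -1.51 (SE 0.90), depend on the pseudocount of 1, and without control replicate 3 they were -1.52 and -0.61. Vpreb1 is a near copy of Vpreb2, so reads may have been split between them and both values are uncertain.

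Among the mature genes, Cd79a (ENSRNOG00000020125, chromosome 1, 80493581 to 80497935, plus strand) encodes the Ig-alpha chain that pairs with Cd79b in the receptor. It stood at 155, 197, and 172 FPKM in control, 31.4, 1.29, and 23.8 in model, and 1.06, 10.7, and 21.1 in SYD-H libraries. The groups did not overlap with control, and model replicate 2 and SYD-H replicate 1 were nearly empty, with 34 and 28 reads. The log2 differences from control, -3.84 (SE 0.99) and -4.43 (SE 0.86), carried the widest errors of the mature genes in their comparisons.

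Its partner Cd79b (ENSRNOG00000011917, chromosome 10, 91239356 to 91242625, minus strand) encodes Ig-beta. It measured 39.6, 57.1, and 58.7 FPKM in control, 0, 1.31, and 8.38 in model, and 2.45, 4.84, and 5.37 in SYD-H libraries. Cd79a and Cd79b did not keep 1 ratio in the model libraries: model replicate 1 had 114 Cd79a reads and none of Cd79b, where the control ratio would have given 54.7. The floor of 3 reads is 0.510 FPKM for Cd79b there. The log2 differences from control were -4.22 (SE 0.80) and -3.37 (SE 0.29).

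Blnk (ENSRNOG00000013967, chromosome 1, 239753648 to 239821113, minus strand), the adaptor, is also known from macrophages. It stood at 31.2, 37.6, and 33.7 FPKM in control, 6.19, 10.2, and 7.12 in model, and 6.98, 12.6, and 9.93 in SYD-H libraries. It was the steadiest of the 9 genes in the model group, at 18.1% to 29.9% of the control mean, and lay at 20.4% to 37.0% in the SYD-H group. The log2 differences from control were -2.01 (SE 0.26) and -1.73 (SE 0.22).

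Cd72 (ENSRNOG00000017485, chromosome 5, 57697367 to 57704725, minus strand), the inhibitory coreceptor, had the largest difference of the 9 genes between model and control on log2(FPKM + 1), -4.80 (SE 0.45). As a ratio of mean FPKM to control, Vpreb1 was lower, at 0.00428 against 0.0122 for Cd72. Cd72 stood at 30.9, 49.4, and 30.4 FPKM in control, 0, 1.35, and 0 in model, and 1.24, 4.48, and 0.994 in SYD-H libraries. At the control ratio to Cd79a, 35.8 and 49.6 reads of Cd72 would have stood in model replicates 1 and 3, where none were found. In SYD-H against control its log2 difference was -3.67 (SE 0.44).

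Ms4a1 (ENSRNOG00000020945, chromosome 1, 207906374 to 207918512, minus strand), the gene of CD20, stood at 9.001, 10.4, and 14.3 FPKM in control, 5.05, 0, and 5.23 in model, and 0.741, 0.185, and 0.968 in SYD-H libraries. Model replicates 1 and 3 kept 45.0% and 46.6% of the control mean, from 28 and 53 reads, while model replicate 2 had none. All SYD-H libraries were at or below 8.63%, from 30, 8, and 17 reads. The log2 differences from control were -1.84 (SE 0.76) in the model group and -2.91 (SE 0.27) in the SYD-H group.

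**Figure D2:**
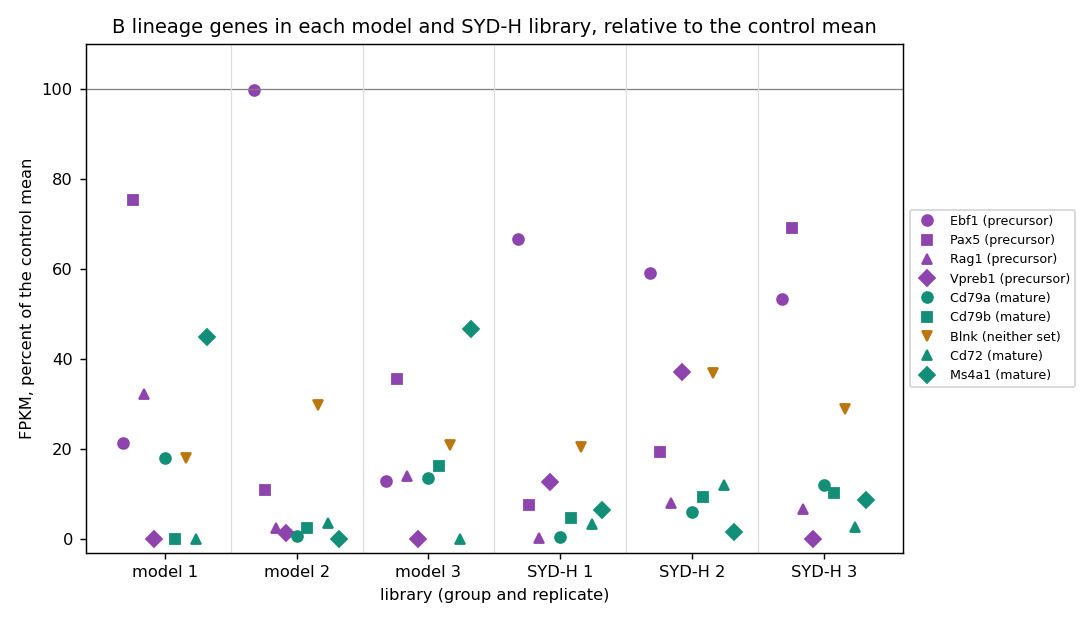
The y axis gives the FPKM of each of the 9 genes as a percent of its control mean, for the 6 model and SYD-H libraries along the x axis, with the line at 100 marking the control mean. Ebf1 in model replicate 2 reached 99.9% and the other points lie at or below 75.4%, with the median over the 9 genes between 2.53% in model replicate 2 and 18.1% in model replicate 1.

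Library by library, the model and SYD-H samples were not highest for the same genes. Model replicate 1 was highest for Pax5, model replicate 2 for Ebf1, and model replicate 3 for Ms4a1, while the highest gene was Ebf1 in SYD-H replicates 1 and 2 and Pax5 in replicate 3. Zero reads were found for 3, 1, and 2 of the 9 genes in model replicates 1, 2, and 3, and for 1 of the 9 in SYD-H replicate 3. Of these 7 zeros, 3 were Vpreb1, including the one in SYD-H. For comparison, of the 641 genes outside the mitochondrial set with a control mean of 30 to 100 FPKM, the range that holds Cd79b, Cd72, and Blnk, 2.34% and 2.496% were at 0 in model replicates 1 and 3. In the range of 10 to 30 FPKM, with 2190 genes and the means of Pax5, Rag1, Ms4a1, and Ebf1, the shares were 6.07%, 2.10%, and 4.25% in model replicates 1, 2, and 3. In the range of 5 to 10 FPKM, which holds Vpreb1, 18.1%, 2.99%, and 12.7% of 2676 genes were at 0 in the model and 1.23%, 1.01%, and 3.25% in SYD-H libraries. In the higher ranges, at most 1.09% were at 0 in any SYD-H library.

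The study called a gene a DEG at an unadjusted p under 0.05 with an absolute log2 fold change over 1, and limma with these criteria was run on all 13898 tested genes. In model against control, 7 of the 9 genes were DEGs and lower, beside 11.2% of all tested genes called lower. Ebf1 and Ms4a1 were the exceptions. At an adjusted p under 0.05, Blnk and Cd72 were called, beside 2.35% of all tested genes, and for 8 of the 9 all model libraries were below all control libraries, beside 20.0% of all genes. Since this contrast chose the genes, nothing is read from these counts. The median log2 difference was -2.35 over the 9 genes and -0.23 over all tested genes.

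SYD-H libraries were set beside the same control libraries, so this comparison is not independent of the first and is given as a description too. Again 7 of the 9 genes were DEGs and lower, beside 9.22% of all genes, with Vpreb1 and Ebf1 as the exceptions. An adjusted p under 0.05 was also reached by 7, beside 9.57%, here with Ebf1 and without Pax5 and Vpreb1. For 8 of the 9 genes, all but Vpreb1, every SYD-H library was below every control library, beside 22.2% of all genes. The median was -2.91 over the 9 genes and 0 over all tested genes.

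SYD-H against model set the libraries labelled syd beside the model libraries, and no difference was detected for any of the 9 genes. This comparison shares the model libraries with the contrast that chose the genes. None was a DEG, beside 3.62% of all genes called raised and 0.532% called lowered, and for all 9 the libraries of both groups overlapped, where SYD-H libraries were all higher for 7.89% and all lower for 3.17% of all genes. The median log2 difference was 0.29, against 0.22 over all tested genes. Cd72, at 1.13 with a 95% interval of -0.25 to 2.51, had the largest estimate (limma, Benjamini-Hochberg adjusted p = 0.723). Ms4a1 lay in the other direction at -1.07 (95% interval -2.96 to 0.82, limma adjusted p = 0.723), as did Rag1 at -0.74 (-2.16 to 0.68), Cd79a at -0.60 (-3.67 to 2.48), and Pax5 at -0.39 (-2.40 to 1.62), but all 4 turned positive with FPKM rescaled to TPM, which moves the median of all genes to 1.22, and Cd79a and Pax5 also with voom.

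Vpreb1 at 0.91 (95% interval -0.25 to 2.08), Cd79b at 0.86 (-1.21 to 2.92), Ebf1 at 0.72 (-0.83 to 2.27), and Blnk at 0.29 (-0.57 to 1.14) were on the upper side of 0, where Ebf1 turned to -0.24 with voom. Over the 9 genes, limma's adjusted p ranged from 0.723 to 0.882. All of these intervals but that of Blnk reach beyond a log2 difference of 2 or -2, so the overlap does not show that the groups were alike. Without model replicate 2, the library with the lowest erythroid and neutrophil sums, 3 of the 9 were DEGs: Ebf1 (1.41) and Cd72 (1.54) were raised and Ms4a1 fell by 1.94 on the log2 scale. In that fit 13.8% of all tested genes were called raised and 4.12% lowered, so calls were more frequent over the whole table. Without model replicate 3, Cd79b (1.73) was called, beside 2.19% of all genes called raised, and without SYD-H replicate 3, Vpreb1 (1.39), beside 3.32%, none of them with an adjusted p under 0.05. No tested gene of the whole table had an adjusted p under 0.05 in this comparison with limma, where 731 had an unadjusted p under 0.05, and voom on the recovered reads also gave 0. With no filter on low values 2 genes passed.

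**Figure D3:**
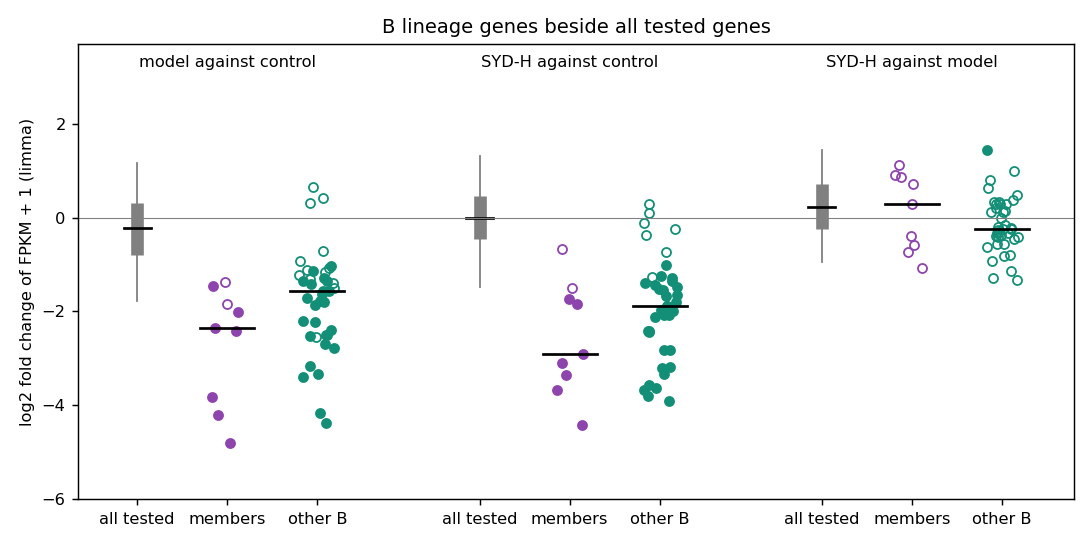
The y axis is the limma log2 fold change of FPKM + 1 in the 3 comparisons, with gray boxes for the quartiles of all 13898 tested genes and whiskers for the 5th to 95th percentile, purple points for the 9 genes, green points for the 39 other tested B lineage genes, and black lines for the medians. Filled points are DEGs; the 9 genes have medians of -2.35, -2.91, and 0.29 from left to right.

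Precursor and mature genes were then contrasted within each library, where a ratio does not depend on the scaling between libraries. Of the summed FPKM of both sets, Rag1, Vpreb1, Ebf1, and Pax5 made up 14.3%, 11.7%, and 18.6% in control. Their share was 34.5%, 77.1%, and 19.8% in model and 63.7%, 40.2%, and 39.4% in SYD-H libraries. All model and SYD-H libraries were above all control libraries, although model replicate 3 lay only just above the highest control. The means were 14.9% ± 3.51, 43.8% ± 29.8, and 47.8% ± 13.8 (SD, n = 3 each), and the model and SYD-H groups overlapped. No test was run on this share, since its genes were chosen with the first contrast known.

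The higher share came with lower sums of both sets. Precursor genes summed to 39.2 to 63.1 FPKM in control and to 9.23 to 19.2 in the model and 9.64 to 18.5 in SYD-H libraries. Mature genes summed to 235 to 314, 3.95 to 37.4, and 5.49 to 28.5 FPKM. The median log2 difference from control was -1.90 for the precursor and -4.03 for the mature genes in the model group, and -1.67 and -3.52 in the SYD-H group. In SYD-H against model the medians were 0.16 and 0.13. With the pseudocount of 1, a gene low in control cannot fall as far, so these medians also depend on control levels. As ratios of mean FPKM to control, Ebf1, Pax5, Rag1, and Vpreb1 stood at 0.447, 0.407, 0.162, and 0.00428 in the model group. Cd79a, Cd79b, Cd72, and Ms4a1 stood at 0.108, 0.0624, 0.0122, and 0.305. SYD-H ratios were 0.597, 0.320, 0.0506, and 0.166 for the precursor and 0.0628, 0.0815, 0.0607, and 0.0563 for the mature genes.

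Which genes carried the share mattered. Without Ebf1 it was 10.9%, 9.13%, and 15.5% in the control, 31.6%, 36.4%, and 17.3% in the model, and 29.3%, 25.9%, and 30.7% in SYD-H libraries, so the groups stayed apart from control and model replicate 2 no longer stood out. Without Pax5 it was 9.59%, 6.65%, and 14.2% in the control, 14.9%, 74.3%, and 7.80% in the model, and 60.4%, 33.8%, and 19.1% in SYD-H libraries, so model replicate 3 fell within the control range while the SYD-H group stayed above it. With only Rag1 and Vpreb1, the genes of the precursor stage proper, against the same mature genes, the shares were 5.80%, 3.78%, and 10.7% in the control, 9.91%, 9.07%, and 4.46% in the model, and 15.3%, 15.7%, and 2.86% in SYD-H libraries. All 3 groups then overlapped. These last 2 definitions were added after the shares were seen. Against Ms4a1 alone, Rag1 and Vpreb1 made up 54.3% to 69.8% in the control, 25.02% to 100% in the model, and 46.4% to 95.3% in SYD-H libraries, again with overlap between the groups. The model group was thus no longer apart from control once Pax5 was left out, and the SYD-H group no longer once Ebf1 was left out as well.

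Taken as recovered reads, which do not correct for gene length, the precursor share was 34.9% (95% Clopper-Pearson interval 34.1% to 35.7%), 28.7% (28.1% to 29.3%), and 37.0% (36.3% to 37.6%) in the control libraries. In the model libraries it was 61.9% (56.8% to 66.9%), 89.2% (87.4% to 90.8%), and 39.9% (35.6% to 44.4%), and in SYD-H libraries 78.8% (76.1% to 81.3%), 60.6% (58.3% to 62.8%), and 61.5% (58.3% to 64.5%). The interval of model replicate 3 overlapped that of control replicate 3. Reads without molecular identifiers are not independent molecules, so these intervals cover counting error only.

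**Figure D4:**
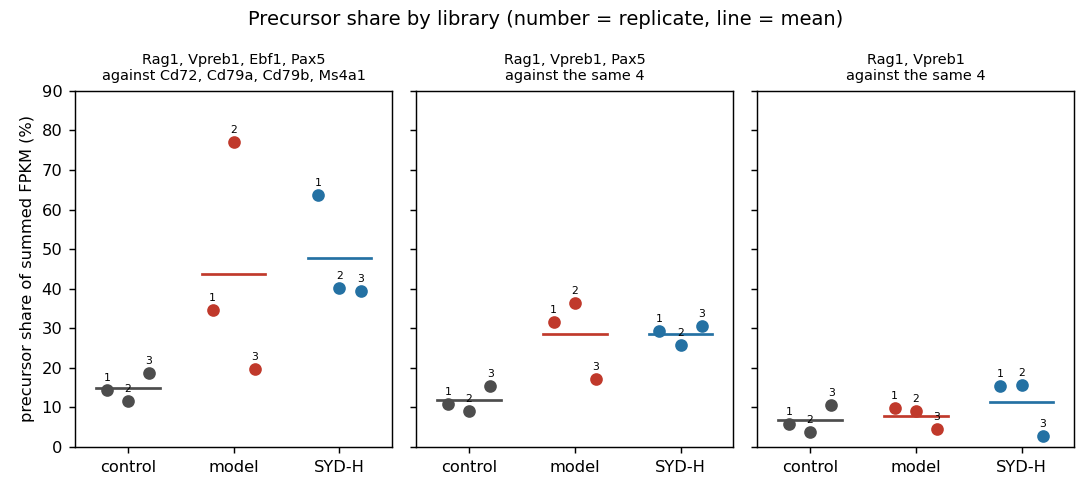
The y axis is the precursor share of the summed FPKM in percent, with 1 numbered point per library and a line at each group mean, for the 4 precursor genes (left), without Ebf1 (middle), and with Rag1 and Vpreb1 alone (right), each against the same 4 mature genes. The model and SYD-H groups lie above the 11.7% to 18.6% of the control libraries on the left and overlap with them on the right.

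Single ratios to Cd79a showed the same split between Pax5 and Rag1. Pax5 stood at 9.20% to 10.2% of the Cd79a FPKM in the control libraries, and at 40.9%, 145%, and 25.5% in the model and 121%, 30.7%, and 55.7% in SYD-H libraries, above control in all 6. Rag1 stood at 5.57% to 8.50% in control, 12.8%, 23.2%, and 7.33% in model, and 3.71%, 9.43%, and 3.97% in SYD-H libraries, on both sides of control. Blnk, at 19.1% to 20.1% of Cd79a in the control libraries, was at 794% in model replicate 2 and 661% in SYD-H replicate 1. Ebf1 reached 856% and 698% in those same libraries, from 5.10% to 7.37% in control. Cd79a is the denominator of all these ratios and had its lowest values in these libraries.

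The other B lineage genes came from a list of 46 names, of which 45 were found and 39 tested. In model against control, 26 of the 39 were DEGs, all lower, 6 of them with an adjusted p under 0.05, and the median was -1.56 on the log2 scale. In SYD-H against control, 32 were lower DEGs, 29 genes had an adjusted p under 0.05, and the median was -1.88. The shares of all tested genes called are those given above for these comparisons. In SYD-H against model, 1 was raised, none was lowered, and the median was -0.24. The raised gene was Cd40, the receptor through which T cells help B cells, at 0, 0.788, and 0 FPKM in the model and 2.35, 2.53, and 2.03 in SYD-H libraries, with a log2 difference of 1.44 and a limma adjusted p of 0.723, short of the threshold. Macrophages are known to make Cd40 too. Of the 10 tested macrophage genes, 2 were raised DEGs in this comparison and 8 were not called, 2 of them with differences below 0, and the list's median was 0.68; their part in the Cd40 difference was not tested. Without model replicate 2, 7 of the 39 were called in this comparison, 5 of them lowered. In that fit, 4.12% of all tested genes were called lowered and 13.8% raised. Without SYD-H replicate 2, 3 of the 39 were called, beside 2.68% of all tested genes in either direction. Without model replicate 1 or SYD-H replicate 3, 2 of the 39 were called, beside 3.04% and 3.73%.

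Tnfrsf13c, the receptor for the survival factor BAFF, stood at 4.25, 4.82, and 8.03 FPKM in control, 0 in all 3 model libraries, and 0, 0.817, and 0 in SYD-H libraries. Against the highest floor of 3 reads per library, 0.478 FPKM, its model mean was at least 11.9-fold lower than the control mean of 5.70. Arpp21 was at 0 in every model library as well, at least 10.3-fold lower. These were among 8 listed genes with no read in the model group. With the 4 tested ones of them at their bound, the median of the list in model against control was again -1.56.

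Spib, a transcription factor of B cells, stood at 64.9, 77.2, and 80.0 FPKM in control, 14.0, 0.669, and 13.1 in model, and 0.326, 10.6, and 12.9 in SYD-H libraries. The library pattern followed that of Cd79a, with model replicate 2 and SYD-H replicate 1 nearly empty. Fcrla, an Fc receptor-like protein inside B cells, had the largest difference of the list on log2(FPKM + 1), -4.38 (SE 0.85) in the model group and -3.90 (SE 0.21) in the SYD-H group. Pou2af1, the coactivator that binds octamer factors, stood at 29.4, 34.3, and 34.3 FPKM in control and at 10.1, 1.16, and 3.77 in the model and 1.57, 4.58, and 2.34 in SYD-H libraries.

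Syk, Lyn, and Plcg2 encode enzymes of receptor signaling that other blood cells also use. The log2 difference of Syk from control was -1.78 (SE 0.53) in the model group and -2.09 (SE 0.14) in the SYD-H group. That of Lyn was -1.28 (SE 0.50) and -1.29 (SE 0.20), and that of Plcg2 was -1.41 (SE 0.41) and -1.65 (SE 0.17), and all 3 genes were lower DEGs in both groups. Btk and Irf4 were DEGs in the SYD-H group, at -1.79 (SE 0.20) and -2.44 (SE 0.22), but had high values of 23.6 and 10.2 FPKM in model replicate 1 and were not called in the model group. Tcf3, a partner in E-box binding, stood at 46.4, 59.9, and 53.2 FPKM in control, 33.9, 18.2, and 20.4 in model, and 9.27, 16.3, and 10.7 in SYD-H libraries. Of the 39 tested genes, 5 were not DEGs in any comparison: Swap70, Sox4, Cd83, Ly86, and Foxo1.

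The list of the pre-B receptor and of recombination held 7 genes: Rag1, Vpreb1, and 5 already counted among the 39. In model against control 5 of the 7 were lower DEGs, beside 11.2% of all tested genes, and in SYD-H against control 6, beside 9.22%. In SYD-H against model none was called, beside 3.62% raised and 0.532% lowered. Igll1, the other part of the surrogate light chain, stood at 17.6, 25.9, and 28.3 FPKM in control, 6.70, 1.60, and 0 in model, and 0.598, 2.35, and 0 in SYD-H libraries. Vpreb2 was at 11.5, 14.7, and 13.6 FPKM in control and at 13.7 in model replicate 1, yet 0 in the other model libraries and at most 0.395 in the SYD-H group. Dntt, the enzyme that adds bases at V(D)J joints, was at 6.59, 0, and 17.1 FPKM in model, where control stood at 12.4, 14.5, and 14.0. High values thus stood in different model libraries for different genes of this list.

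Immunoglobulin variable segments, the parts that Rag1 joins, were on 38 entries of the table. They summed to 74.4, 82.5, and 66.5 FPKM in control, with 29, 31, and 29 entries above 0. The sums were 0, 4.997, and 12.3 FPKM in the model and 0, 4.65, and 8.77 in SYD-H libraries, with at most 3 entries above 0 in any of them. Ighm, the heavy chain of IgM, stood at 94.2, 135, and 102 FPKM in control, 20.5, 2.12, and 10.1 in model, and 14.2, 10.9, and 17.0 in SYD-H libraries. Segments of near-identical sequence share reads, so single entries are uncertain.

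Markers of other cells of blood and joint moved with these groups, and their part in the results was not tested. Model replicates 1 and 3 had summed erythroid levels of 38302 and 42527 FPKM, above the control range of 6683 to 16572, while model replicate 2 had 335. Hba-a1, a hemoglobin gene, made up 31685 and 34883 FPKM of those 2 high sums, and for Tfrc, Rhag, and Epor, 3 of the 12 erythroid genes, all model libraries were below all control libraries. Neutrophil genes summed to 3238 to 6137 FPKM in control, 8034, 81.4, and 2017 in model, and 563, 871, and 3459 in SYD-H libraries. S100a8, a calcium-binding protein of neutrophils, held 4068 FPKM of the sum in model replicate 1, while for 6 of the 11 tested neutrophil genes all model libraries were below control. Lowered DEGs in model against control numbered 6 of 11 tested neutrophil genes, 3 of 12 erythroid genes, 2 of 11 T and NK cell genes, and 1 of 10 macrophage genes. In SYD-H against control they numbered 9, 9, 2, and 1. For 8 tested plasma cell genes the counts were 3 and 3, for 12 chondrocyte genes 7 and 2, and for 9 fat and marrow stroma genes 1 and 1. Several of these counts, such as 1 of 9, 1 of 10, and 2 of 11, are near the 11.2% and 9.22% of all tested genes called lower. Raised DEGs were 1 fat and marrow stroma gene in model against control, where 3.55% of all tested genes were called raised. In SYD-H against control, where 7.25% were, they were 2 fat and marrow stroma genes and 1 gene each of the plasma cell, T and NK cell, and macrophage lists. None was raised on the neutrophil, erythroid, and chondrocyte lists in either comparison. In SYD-H against model, 2 of the 10 macrophage genes (Csf1r at 1.57 and Cd14 at 2.23 on the log2 scale), 1 T and NK cell gene, and 1 neutrophil gene were raised DEGs, and no gene of these marker lists was lowered. The summed level of the 9 B lineage genes was below control in all 6 model and SYD-H libraries.

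The T and NK cell list summed to 51.8 to 69.6 FPKM in control, 7.93 to 30.03 in model, and 25.2 to 33.3 in SYD-H libraries. Nkg7 alone held 27.1 to 41.7 FPKM in control, 0 in model, and at most 2.37 in SYD-H libraries. Of the 11 tested genes, 4 had all model libraries below all control libraries. In SYD-H against control, 3 were lower and 2 higher in all libraries. Cd3d, Cd3e, and Cd3g, which define T cells, were at 0 in all model libraries, and Cd3d also in all SYD-H libraries, where control levels of Cd3d and Cd3e were below 0.4 FPKM. Macrophage genes summed to 1107 to 1688, 261 to 489, and 336 to 679 FPKM in the 3 groups, most of it Lyz2 in control, at 942 to 1553, 177 to 264, and 184 to 365. Lyz2 was the only 1 of the 10 tested macrophage genes with all model libraries below all control libraries. It was also the only 1 lower in all SYD-H libraries, while 3 were higher in all of them. Fat and marrow stroma genes summed to 81.9 to 120, 67.8 to 208, and 60.8 to 194. Chondrocyte genes, the markers of the labelled tissue, ran from 449 to 11156 FPKM within the control group alone, with 811, 200, and 210 in the model and 1190, 820, and 120 in SYD-H libraries. Matn1 was at 0 in every model and SYD-H library.

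**Figure D5:**
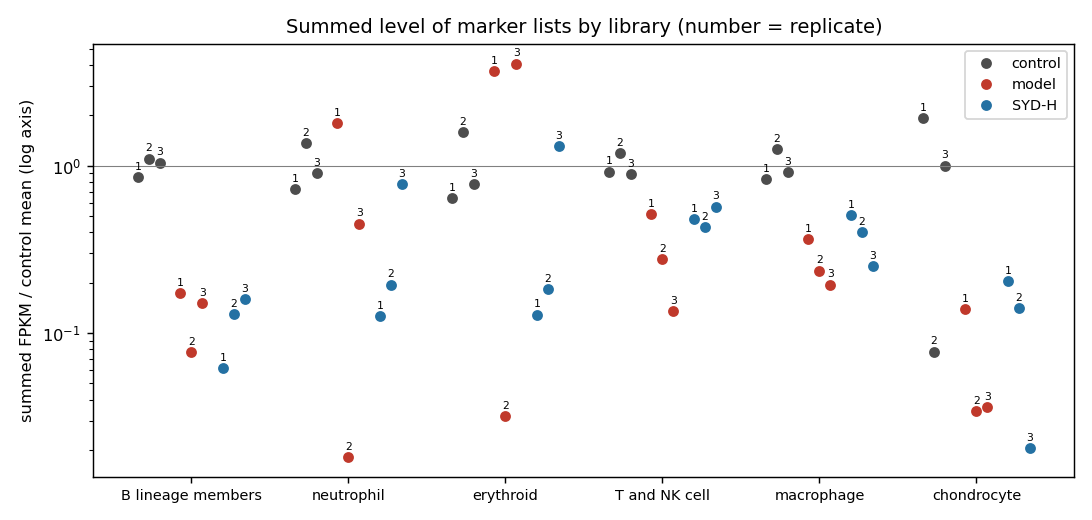
The y axis is the summed FPKM of a marker list divided by its mean over the control libraries (log axis), with 1 numbered point per library and the line at 1 marking the control mean. The 9 B lineage genes lie below control in all 6 model and SYD-H libraries. The erythroid sums of model replicates 1 and 3, most of which is Hba-a1, lie above it.

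The genes whose pattern over the 9 libraries was most like the mean of the 9 members were ranked by the root mean square difference of centred log2(FPKM + 1). Dpp4, a surface peptidase, was closest at 0.263, followed by Tnfrsf13c at 0.299, Ffar2 at 0.319, Ncapd2 at 0.320, AABR07034730.2 at 0.323, Cecr2 at 0.336, Cd300lb at 0.342, Myb at 0.345, Slc14a1 at 0.375, and LOC120094877 at 0.379. Of these 10, Tnfrsf13c was the only one on the list of other B lineage genes. Dpp4 stood at 5.08, 6.44, and 7.39 FPKM in control, 0, 0.135, and 0 in model, and 0, 0.713, and 0.399 in SYD-H libraries. The members themselves differed from their own mean by 0.484 (Rag1) to 1.29 (Cd79a). Each of the 10 lay closer, but they were picked for the smallest difference among all named tested genes. The members were not picked that way, so nothing is read from this.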

How the data were processed

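RNA was sequenced from knee cartilage, with 3 libraries in each of 3 groups taken from the labels. The authors deposited 1 table of FPKM values, with names, positions, lengths, and biotypes of the genes. The submitters' processing notes name HISAT2 2.0.5 and the build hg38, which is human, although the gene identifiers are those of rat. The counting tool and annotation release are not given in the sources used here. No column of values per library was left out (0).

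FPKM times gene length was a whole multiple of 1 step per library for 100% of values (tolerance 0.1), which gave the reads. The library size implied by the deposited FPKM was 0.193 to 2.18 times those reads, so the authors' scaling was not by total reads. limma 3.58.1 (R 4.3.3) was run on log2(FPKM + 1) (lmFit, then eBayes with trend = TRUE, two-sided), on the 6 libraries of the groups compared and the 13898 genes with a mean of at least 0.5 FPKM. P-values were adjusted by Benjamini-Hochberg over these genes. The fit was tested on simulated data. With 3 libraries against 3, an exact permutation test cannot go below 0.1, so none was used. Tables were handled in Python 3.11.15 with pandas 2.3.3, scipy 1.17.1, and matplotlib 3.10.9.

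The members and lists were chosen with earlier results of these data known. The genes named were all members, DEGs of the B lineage and pre-B lists or otherwise their 10 highest, immunoglobulin entries as a sum, the 10 nearest patterns, and the 3 highest of each marker list. Cd3d, Cd3e, Cd3g, Crx, Nrl, and Matn1 as defining markers, and Swap70, Sox4, Cd83, Ly86, and Foxo1 as exceptions, as well as Tfrc, Rhag, Epor, Csf1r, and Cd14, were named after their values were seen. Alternatives were a pseudocount of 0.1, no filter, a mean of at least 1 FPKM, TPM, scaling to non-mitochondrial genes, quantile normalization, voom on recovered reads, all 9 libraries in 1 fit, a replicate block, leaving out each library, and calls by adjusted p.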

Additional observations from a re-analysis of the deposited data

How the results depend on the processing

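The call of 7 of the 9 genes lower than control moved between 6 and 9 under the alternatives that keep the DEG criteria, in both the model and the SYD-H group, and every member kept its direction against control. The 9 calls came only with TPM, where 74.9% of all tested genes were called lower in model against control and 42.5% in SYD-H against control. Calling by adjusted p left 2 of the 9 and 6 of the 39 other B lineage genes in model against control, and 0 of the 39 in SYD-H against model. In SYD-H against model, 0 of the 9 and 1 of the 39 were called as reported above. With TPM, all 9 libraries in 1 fit, and the replicate block, 1 of the 9 was called. Of all tested genes, 3.81%, 8.78%, and 3.78% were called in either direction in these fits. Leaving out 1 library gave 0 to 3 of the 9, the 3 without model replicate 2, where 18.0% of all tested genes were called. Of the 39, 2 were called with a pseudocount of 0.1, TPM, non-mitochondrial scaling, or voom, and 0 with quantile normalization. Of all tested genes, 4.32%, 3.81%, 4.07%, 7.76%, and 3.89% were called in either direction in those fits. Leaving out 1 library gave 1 to 7 of the 39, the 7 again without model replicate 2. The median log2 difference of all genes moved to -2.60 for model against control, 1.22 for SYD-H against model, and -1.31 for SYD-H against control with TPM. Differences of members in SYD-H against model turned sign with TPM for Pax5 (0.93), Rag1 (0.10), Cd79a (0.90), and Ms4a1 (0.14), all below that shift of the median, and with voom for Ebf1 (-0.24), Pax5 (0.051), and Cd79a (0.96). Without model replicate 1 or SYD-H replicate 1 they turned for Pax5 (0.15 and 0.18) and Cd79a (0.11 and 0.39). Leaving out 1 library at a time gave -1.07 to 0.18 for Pax5 and -1.81 to 0.39 for Cd79a. The cause of these changes was not tested.

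For Rag1 and Vpreb1 against Ms4a1, the mean precursor share became 61.9% in the control, 56.4% in the model, and 66.3% in the SYD-H group, so that model lay below control, opposite to the share as reported. It was 33.5% in the control and 66.9% in the SYD-H group as reads, and 28.6% in the SYD-H group without Ebf1. Without Pax5, chosen after seeing the data, it was 10.1% for control. With Rag1 and Vpreb1 against the 4 mature genes, also chosen then, it was 6.75% for control, 7.81% for model, and 11.3% for SYD-H. Libraries with the same replicate number did not deviate together (r = -0.267 to 0.194 between their deviations from the group means), so the numbers do not pair them. The replicate block called 7, 1, and 7 of the 9 genes in model against control, SYD-H against model, and SYD-H against control, and no gene at an adjusted p under 0.05. Of all tested genes it called 12.0%, 3.78%, and 16.3% in either direction. In model against control the block lost Pax5 (-1.45) and gained Ms4a1 (-1.84). Pax5 lost its call in model against control also with a pseudocount of 0.1 (-1.66), no filter, and all 9 libraries in 1 fit, and in 5 of the 6 fits that leave out 1 library, the exception being the one without model replicate 1, and Vpreb1 lost its call with quantile normalization (-1.88) and without any 1 model library. Pax5 in SYD-H against control lost its call without control replicate 2 or 3 or SYD-H replicate 1 or 2. Ebf1 was called in model against control with TPM (-3.89), with all 9 libraries in 1 fit, and without model replicate 2 (-2.07), and Ms4a1 with a mean of at least 1 FPKM, TPM (-4.99), non-mitochondrial scaling (-2.09), quantile normalization (-1.75), all 9 libraries in 1 fit, and without model replicate 1 (-2.27) or 3 (-2.29). With TPM, Ebf1 (-2.17) and Vpreb1 (-2.85) were called in SYD-H against control. Without any 1 control library, no tested gene had an adjusted p under 0.05 in model against control. Depth limits the model group most, where a gene at 0 may reach 1.04 FPKM in replicate 1 (Vpreb1).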
